A study of Mus musculus with 24 samples.

Results

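Chemokines and their receptors were examined in colon and liver of 12 mice. The genes were taken by name, as every array gene called Ccl, Cxcl, Ccr or Cxcr followed by a number, which gave 45 genes with 58 probes of the 27962 gene names and 41174 probes on the array. They comprised 32 ligands and 13 receptors, and each gene was read from its brightest probe by mean intensity. All mice were female C57BL/6 offspring of dams that ate HF-low, a high-fat feed with little selenium and folate, for 7 days before mating and then through gestation and lactation. At about 28 days 6 offspring stayed on that feed (HF-low-low) and 6 were moved to a high-fat feed in which selenium and folate were sufficient (HF-low-suf), and tissue was taken at 12 weeks of age after fasting and re-feeding. The arrays held no group whose mothers had sufficient selenium and folate, and no low-fat group. Each of the 24 arrays held the RNA of whole colon or whole liver of 1 mouse in the Cy3 channel and a common reference pool in the Cy5 channel, which the labels describe as colon and liver RNA and the study's methods as intestinal and liver RNA. Values are log2(Cy3/Cy5), so that 0 is the reference level of that probe, and levels of different probes cannot be set against each other.

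Chemokines are small secreted proteins that bind receptors on leukocytes and guide their movement and positioning in tissue. Inflammatory chemokines are induced by infection or injury and draw neutrophils, monocytes, eosinophils and effector T cells, whereas homeostatic chemokines are made constantly by stroma and epithelium and place lymphocytes in gut, lymphoid tissue and bone marrow. In the gut, Ccl25 draws lymphocytes bearing Ccr9. In the liver, Cxcl9, Cxcl10 and Cxcl11 are interferon-induced ligands of Cxcr3, and Cxcl16 on the sinusoid wall binds Cxcr6 of resident lymphocytes.

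Genes of the family lie in clusters. On chromosome 11 in build mm7 the probes of Ccl9 (83644626 to 83644685) and Ccl6 (83658400 to 83658459) are neighbours, both on the minus strand, and on chromosome 5 the probes of Cxcl9, Cxcl10 and Cxcl11 start at 92310412, 92334002 and 92348344. Upstream sequences of 4 of these genes are shown because Ccl6 and Ccl9 differed in opposite directions between the tissues while Cxcl9 and Cxcl10 differed in the same direction. They are the 250 bases before the RefSeq transcription start in build GRCm38.p6, read 5′ to 3′ on the gene's strand. RefSeq windows were found for 33 of the 45 genes. Capitals in Cxcl9 and Cxcl10 mark matches on either strand to GAAA followed after 2 bases by a second GAAA, the core of the interferon-stimulated response element, or to GGGA followed after 2 bases by TNCC, where N is any base, a form of the NF-kB motif. Capitals in Ccl9 and Ccl6 mark the longest run of 13 bases that both windows share.
Cxcl9, chr5:92328080-92328329, minus strand: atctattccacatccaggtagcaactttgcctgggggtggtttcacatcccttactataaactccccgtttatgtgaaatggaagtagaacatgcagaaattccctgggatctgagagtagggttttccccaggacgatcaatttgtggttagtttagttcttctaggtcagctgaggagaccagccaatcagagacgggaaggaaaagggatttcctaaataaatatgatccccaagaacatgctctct
Cxcl10, chr5:92348890-92349139, minus strand: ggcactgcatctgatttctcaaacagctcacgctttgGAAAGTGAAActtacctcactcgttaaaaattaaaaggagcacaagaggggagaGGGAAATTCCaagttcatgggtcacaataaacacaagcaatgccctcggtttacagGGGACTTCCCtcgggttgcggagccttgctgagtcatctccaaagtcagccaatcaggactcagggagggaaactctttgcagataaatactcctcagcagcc
Ccl9, chr11:83578637-83578886, minus strand: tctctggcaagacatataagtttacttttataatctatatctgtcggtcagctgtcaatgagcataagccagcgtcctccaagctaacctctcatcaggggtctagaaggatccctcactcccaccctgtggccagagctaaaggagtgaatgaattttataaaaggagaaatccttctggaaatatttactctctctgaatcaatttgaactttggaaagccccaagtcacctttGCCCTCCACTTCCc
Ccl6, chr11:83593088-83593337, minus strand: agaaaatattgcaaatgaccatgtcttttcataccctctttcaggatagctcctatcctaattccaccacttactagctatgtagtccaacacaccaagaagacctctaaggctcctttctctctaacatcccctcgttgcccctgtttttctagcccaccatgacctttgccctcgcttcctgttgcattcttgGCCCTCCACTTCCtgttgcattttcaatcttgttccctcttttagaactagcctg
The Cxcl10 window held 1 match to the first motif, starting 213 bases before the start site, and 2 matches to the second, starting 159 and 103 bases before it. Neither set of letters was in the Cxcl9 window. Of 32851 windows of the same length, 978 (2.98%) held the first motif and 1094 (3.33%) the second. Among the 33 chemokine genes with a window, 3 held the first (Ccl19, Cxcl10 and Cxcl14) and 6 the second (Ccl1, Ccr3, Ccr6, Cxcl1, Cxcl2 and Cxcl10). A gene counted if any of its windows matched, and Ccl25, Ccr6 and Ccl27 had more than 1 window, whereas the shares over all windows are per window. The first was in 1 of 6 genes higher in colon, 2 of 8 higher in liver and 0 of 19 not called, and the second in 0, 2 and 4 of these. The shared run began 14 bases before the start site in Ccl9 and 55 bases before it in Ccl6.

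The tissues carried their own markers. All 12 colon epithelial genes on the array were higher in colon and all 9 hepatocyte genes higher in liver, with the mean log2 ratio of the epithelial list between 0.32 and 0.86 in colons and between -3.99 and -2.78 in livers. All 4 groups were on every slide, and the 6 slides were scanned over 2 days, 3 on each. Median Cy3 signal was 3.78 to 7.20 times the local background. Colon HF-low-suf replicate 5 and liver HF-low-suf replicate 4 had the brightest Cy5 channels (18.1 and 12.8 times background, against 5.41 to 7.54 on the other arrays), and leaving them out changed none of the calls below. They also had the largest shares of spots well above background in Cy3 (71.91% and 59.58%, other arrays 26.05% to 52.5%). That liver had 8.75% outlier spots (other arrays at most 0.768%). The counts of detected arrays below include both arrays. Cxcl11 and Cxcl13 in liver and Cxcl10 and Ccl24 in colon reached 6 arrays only with them. Liver HF-low-suf replicate 1 stood apart in adipose transcripts (mean log2 ratio 2.30, other livers -1.31 to 0.10) and replicate 2 in skeletal muscle transcripts (-2.65, other livers -4.90 to -3.92). The 12 colons lay in separate clusters by a list of 12 macrophage and monocyte genes, 5 with a mean log2 ratio of -0.98 to -0.48 and 7 with 0.10 to 0.50, both diets and both scan days being in each, and without the 5 lower colons all 18 calls below were kept. The mean log2 ratios of the skeletal muscle and pancreas gene lists lay below the reference on all 24 arrays. So did Ccl25, Ccl5 and Cxcl14 among the members detected on at least 6 colons, and the dim Ccl28. With no dye swap, the make-up of the reference and a dye bias of single probes cannot be told apart.

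Detection, by the scanner software's flag for a spot well above background in Cy3, was uneven across the family. It was reached on at least 6 of the 12 arrays of a tissue by 23 of the 45 genes (background over all probes 46.3%), 20 of them in colon (background 43.9%) and 18 in liver (background 36.9%). Of these, 19 were ligands and 4 were receptors, with Ccr2, Cxcr3 and Cxcr6 among them. Ccl22, Ccr1, Ccr7, Ccr8, Cxcl2, Cxcl5 and Cxcl15 were above background on none of the 24 arrays (7 genes, background 23.6%). All 4 homeostatic CXC ligands, but none of the 5 neutrophil-drawing CXC ligands, reached 6 arrays of a tissue. In whole-tissue RNA a dim signal can stand for few cells or for little RNA per cell, and fewer cells of a type and less RNA per cell cannot be told apart at any level.

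**Figure D1:**
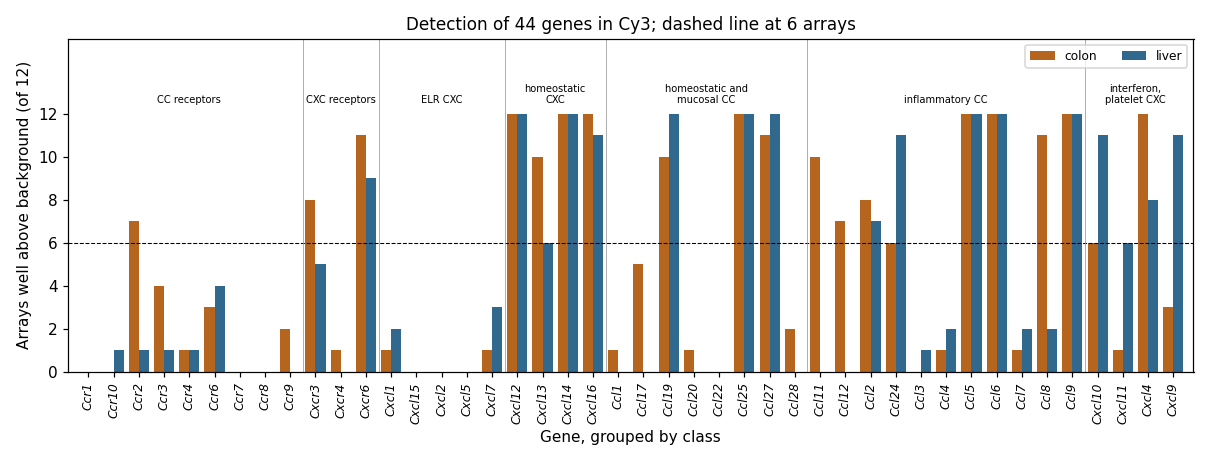
Number of arrays, of 12 per tissue, on which each of 44 genes was well above background in Cy3, with genes grouped by class along the x axis and the dashed line at 6 arrays. Ccl11 and Ccl12 were detected in colon (10 and 7 arrays) and on no liver array, and Cxcl9 mainly in liver (11 arrays against 3).

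Colon and liver differed in 18 of the 45 genes (limma, mouse as random block, Benjamini-Hochberg adjusted p under 0.05), 7 higher in colon and 11 higher in liver. Over all probes 38.3% were called, 19.0% higher in colon and 19.4% higher in liver, so the family's totals were near the background. Among the 23 well-detected genes, 7 were higher in colon and 9 higher in liver, where 69.1% of all well-detected probes were called, 36.0% and 33.2% in those directions. The arrays of the tissues did not overlap for 8 of the 45 genes (background 12.5% over all probes), which were Ccl6, Ccl25, Cxcl12, Ccl24, Ccl19, Ccl9, Cxcl11 and the dim Cxcl1. Without Cxcl1 these were 7 of the 23 well-detected genes (background 26.6% over well-detected probes). The median difference was -0.04 over the 45 genes and -0.02 over all probes. With the signals processed by the scanner software, the median over all probes moved to 0.19 and 26 genes were called, 15 higher in colon, with all 18 calls kept.

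**Figure D2:**
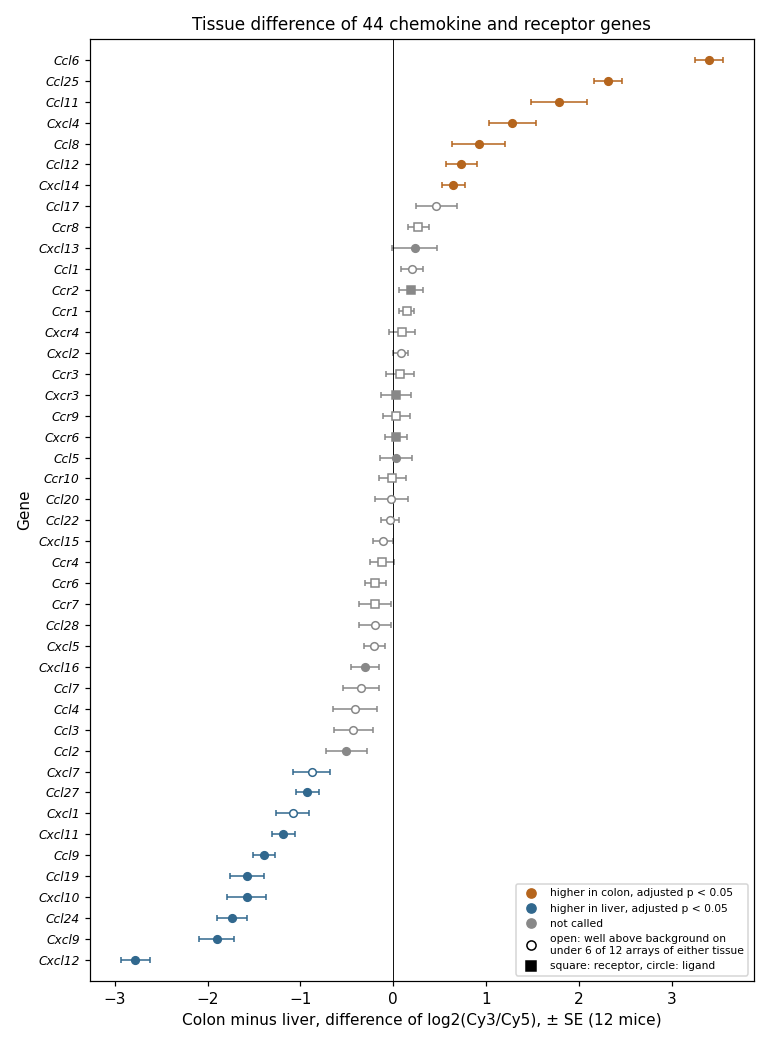
Colon minus liver difference of log2(Cy3/Cy5) with its standard error for 44 genes, ordered by size, with colour giving the direction of the 17 called genes drawn and open symbols the genes detected on fewer than 6 arrays of either tissue. Ccl6 (3.41) and Cxcl12 (-2.78) lie at the ends, and receptors are drawn as squares.

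Among the inflammatory CC ligands, Ccl6, a rodent chemokine of myeloid cells, had the largest difference of all members. Its log2 ratio ran from 1.47 to 2.52 in the 12 colons (median 2.32) and from -2.01 to -0.14 in the livers (median -1.20). Every colon lay above every liver, and the difference was 3.41 ± 0.15 (SE, 10.6-fold, adjusted p = 1.39e-16). Ccl9, its neighbour and likewise a myeloid chemokine, went the other way. It ran from -0.42 to 0.37 in colons (median 0.14) and from 0.87 to 2.39 in livers (median 1.48), again without overlap, a difference of -1.39 ± 0.11 or 2.63-fold higher in liver (adjusted p = 7.42e-11). Within a mouse the colon minus liver difference ran from 2.37 to 4.34 for Ccl6 and from -2.21 to -0.50 for Ccl9, a pair set side by side because of these values and described with no test.

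The eotaxins, ligands of Ccr3 that draw eosinophils, were also divided between the tissues. Ccl11 ran from -0.88 to 1.97 in colons (median 1.41) and from -2.26 to -0.12 in livers (median -0.97). It was well above background on 10 colons and on no liver, so that its fold is a lower bound, at least 2.27-fold higher in colon, with a fitted difference of 1.79 ± 0.30 (adjusted p = 2.14e-05, higher in colon in 12 of 12 mice). Its colon values had the widest spread of the family (SD 1.05, n = 12), with 4 colons below 0, 2 of each diet, and the other 8 at 0.57 to 1.97. Ccl24 ran from -1.99 to -0.22 in colons (median -1.27) and from 0.02 to 1.09 in livers (median 0.56). The groups did not overlap, and Ccl24 was 3.33-fold higher in liver (-1.73 ± 0.16, adjusted p = 5.93e-10), with its dimmer second probe at -1.23. Their receptor Ccr3 was above background on 4 colons and 1 liver and was not called, and 8 eosinophil and mast cell genes were detected on at most 5 arrays of a tissue.

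Monocyte-drawing ligands of Ccr2 did not move together. Ccl12 was above background on 7 colons and no liver, and was at least 1.22-fold higher in colon (fitted difference 0.73 ± 0.17, adjusted p = 0.000839, 11 of 12 mice). Ccl2 was measured in both tissues on 8 and 7 arrays, with -0.81 to 0.98 in colons and -0.62 to 1.85 in livers, a difference of -0.51 (95% interval -0.97 to -0.05) whose adjusted p of 0.0790 missed the threshold. Ccl2 passed within scan day 1 (-0.93, adjusted p = 0.0355) and without HF-low-low replicate 4, and was -0.08 within scan day 2. Ccl7 was dim on 21 of 24 arrays. Ccl8, a macrophage chemokine, was detected on 11 colons and 2 livers and was higher in colon by 0.92 ± 0.29 (adjusted p = 0.0107, 9 of 12 mice). Most of its liver values were not well above background, so the size of this difference is approximate. Its range of -1.86 to 0.71 in colons overlapped that of -2.63 to -0.45 in livers, and the call was lost within scan day 2 (0.89, adjusted p = 0.179). Ccl5, a ligand of Ccr1 and Ccr3 made by T and NK cells, was well above background on all 24 arrays, with medians of -1.42 in colons and -1.38 in livers and a difference of 0.03 (95% interval -0.32 to 0.38). This value depended on the scaling, since with median centring in place of loess Ccl5 was called higher in colon (0.46, adjusted p = 0.0261). Ccl3 and Ccl4 were above background on 1 and 3 of 24 arrays, and Ccl3 was called without HF-low-low replicate 5.

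**Figure D3:**
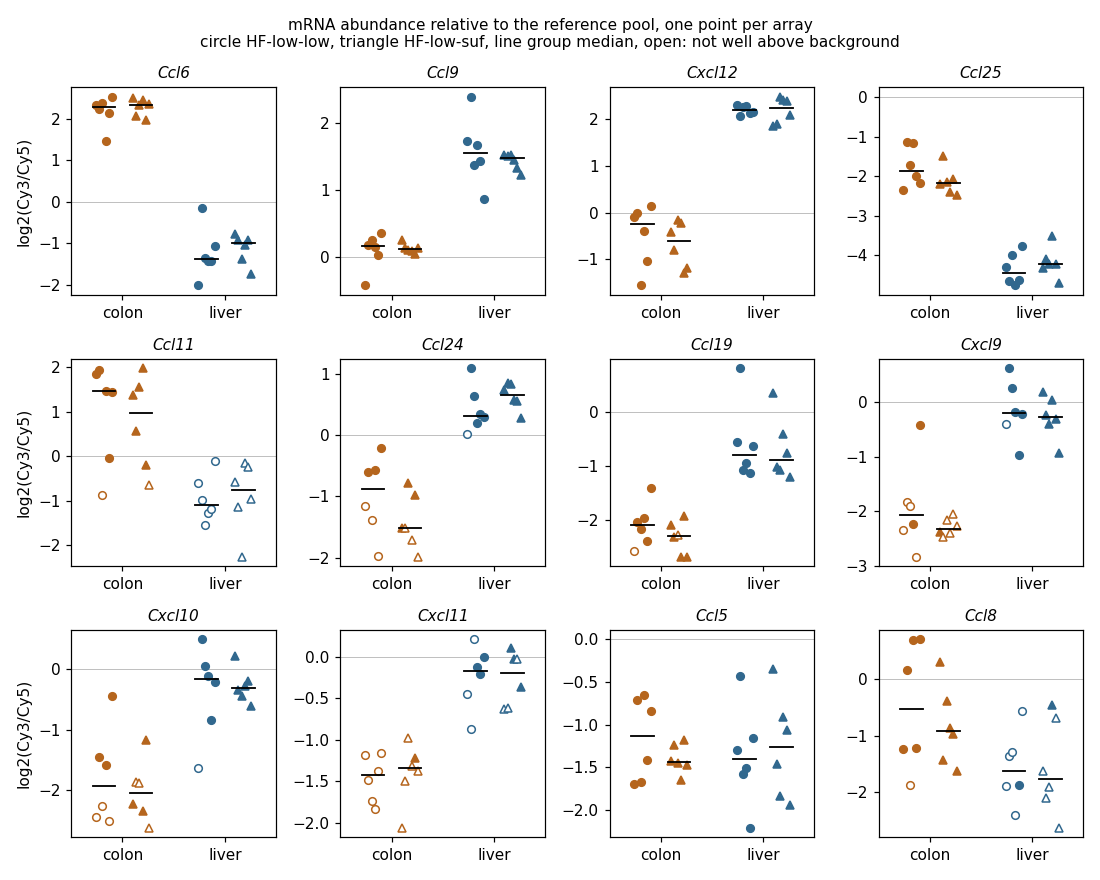
log2(Cy3/Cy5) of 12 genes on every array, with colon and liver along the x axis, circles for HF-low-low, triangles for HF-low-suf, a line at each group's median and open symbols for spots not well above background. Colon and liver separate completely for Ccl6, Ccl9, Cxcl12, Ccl25, Ccl24, Ccl19 and Cxcl11. For Ccl5 the colon range (-1.69 to -0.65) lies within the liver range (-2.21 to -0.35). The 2 diets overlap within each tissue for every gene drawn.

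The ligands of Cxcr3, which interferon induces and which draw activated T cells, were all higher in liver. Cxcl9 ran from -2.84 to -0.42 in colons (median -2.25) and from -0.96 to 0.63 in livers (median -0.22), a 3.74-fold difference (-1.90 ± 0.19, adjusted p = 1.87e-09). Only 3 colons but 11 livers were above background. Cxcl10 ran from -2.63 to -0.44 in colons and from -1.64 to 0.50 in livers and was 2.98-fold higher in liver (-1.58 ± 0.21, adjusted p = 4.51e-07), and Cxcl11, above background on 1 colon and 6 livers, was 2.27-fold higher (-1.19 ± 0.12, adjusted p = 6.69e-09). Each of the 3 was higher in liver in 12 of 12 mice. Most colon values of Cxcl9 and Cxcl11 were not well above background, so the sizes of their folds are approximate. The colon of HF-low-low replicate 6 had the highest value of both Cxcl9 and Cxcl10 (-0.42 and -0.44), with the next colons at -1.84 and -1.17. The receptor Cxcr3 was above background on 8 colons and 5 livers and its difference was 0.03 (95% interval -0.30 to 0.36).

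Ligands classed here as homeostatic CXC or as homeostatic and mucosal CC, with all 4 and 3 of 8 well detected, gave differences in both directions. Cxcl12, the stromal ligand of Cxcr4 that retains blood cell precursors and lymphocytes, ran from -1.56 to 0.14 in colons (median -0.40) and from 1.86 to 2.48 in livers (median 2.20). It was 6.87-fold higher in liver (-2.78 ± 0.16, adjusted p = 3.08e-14), and the livers varied little (SD 0.19) while the colons spread more (SD 0.57). A second Cxcl12 probe, for another RefSeq transcript and placed at chromosome 6, 117200799 to 117200858 against 117207552 to 117207611 in build mm7, gave a smaller difference of -1.12 (adjusted p = 6.15e-05). Both probes were above background on all 24 arrays. The pair was compared after its values were seen, and, as a description with no test, the difference was lower for the main probe in 12 of 12 mice, by 0.86 to 2.94.

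Ccl25, the gut and thymus ligand of Ccr9, was 4.97-fold higher in colon (2.31 ± 0.15, adjusted p = 9.53e-13), with -2.47 to -1.14 in colons and -4.76 to -3.50 in livers and no overlap. Its second detected probe, in another part of the gene, gave 0.49 (adjusted p = 0.0342), and the third was dim on all arrays. Ccr9 itself was above background on 2 colons and no liver. Cxcl14, an epithelial and stromal chemokine, was 1.57-fold higher in colon (0.65 ± 0.12, adjusted p = 8.24e-05, 12 of 12 mice). Ccl19, the lymphoid ligand of Ccr7, was 2.98-fold higher in liver, with -2.69 to -1.41 in colons and -1.22 to 0.81 in livers (-1.57 ± 0.18, adjusted p = 5.48e-08). A second Ccl19 probe gave -1.71, but both probes may also read near-identical pseudogene copies of Ccl19. Ccl27, an epithelial ligand of Ccr10, was 1.90-fold higher in liver (-0.92 ± 0.12, adjusted p = 3.02e-07), with the same reservation because the mouse has a second copy of the gene.

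Of the remaining ligands of these classes, Cxcl16, the membrane-bound ligand of Cxcr6, was above background on 12 colons and 11 livers. It differed by -0.31 (95% interval -0.62 to 0.01, adjusted p = 0.124), and it was called without HF-low-low replicate 1 (-0.39). Cxcr6 was above background on 11 colons and 9 livers, with a difference of 0.03 (95% interval -0.22 to 0.28). Cxcl13, which draws B cells into follicles, ranged from -0.68 to 1.28 in colons and from -1.07 to 1.55 in livers, a difference of 0.23 (95% interval -0.27 to 0.73). Its highest values were in a HF-low-suf colon (replicate 1, 1.28) and a HF-low-low liver (replicate 3, 1.55), and the range within each tissue was wider than the difference between them. Ccl17, a ligand of Ccr4, reached 5 colons and no liver (0.47, adjusted p = 0.104) and was called within scan day 2 (0.61, adjusted p = 0.0123) and without HF-low-low replicate 1, and Ccl1, Ccl20, Ccl22 and Ccl28 were detected on at most 2 arrays.

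The platelet chemokines went in opposite directions. Cxcl4 (current symbol Pf4) was above background on 12 colons and 8 livers and was 2.43-fold higher in colon (1.28 ± 0.25, adjusted p = 0.000130, 11 of 12 mice), although its call was lost within scan day 1 (1.05, adjusted p = 0.0532). Cxcl7 (current symbol Ppbp) and Cxcl1, which draw neutrophils through Cxcr2, were called higher in liver by 0.88 ± 0.20 and 1.08 ± 0.18 (adjusted p = 0.000753 and 1.34e-05), but on signals above background on 4 and 3 of 24 arrays. The Cxcl7 call was lost within scan day 2 (-0.49, adjusted p = 0.0504). Cxcl2, Cxcl5 and Cxcl15 were above background on no array.

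Ccr2, the monocyte receptor, was above background on 7 colons and 1 liver with a difference of 0.19 (95% interval -0.08 to 0.46). The 9 receptors below 6 arrays of each tissue were above background on 0 to 4 arrays of either tissue, and none of them was called. Ccr8, above background on no array, lay closest to the threshold (95% interval 0.04 to 0.50, adjusted p = 0.0592) and passed it without HF-low-low replicate 1, 3 or 4 or HF-low-suf replicate 1 or 5, and Ccr6 passed without HF-low-low replicate 3.

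Other genes of the chemokine system and of signalling below the receptors were read from lists. Of 17 other ligands, decoy receptors and relatives on the array, 8 were higher in colon and 3 higher in liver, where the shares over all probes were 19.0% and 19.4%, and 36.0% and 33.2% over well-detected probes. The largest difference among the well-detected ones was that of Cx3cl1, fractalkine, a membrane-bound ligand (3.77), followed by Ccl21c, a lymphoid ligand of Ccr7 with near-identical copies (1.35), and Cmkor1, the scavenging receptor of Cxcl12 now named Ackr3 (1.25). The array names Cxcr5 as Blr1 and Cxcr2 as Il8rb, and these were above background on 4 and 2 of 24 arrays. Of 22 genes of G protein signalling, 13 were higher in colon and 3 in liver, against the same shares, led by Rgs2, Arrb1 and Rgs1 (2.79, 2.26 and 2.14), which limit or end receptor signalling. Median differences were 0.26 and 0.57 for these lists.

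Markers of leukocytes and other cells were read in the same samples. All 8 Kupffer cell genes were higher in liver (median -3.65), with a mean log2 ratio of -1.64 to -0.78 in colons and 1.13 to 3.30 in livers, and Clec1b and Timd4 were above background on no colon. Of 12 macrophage and monocyte genes, 9 were higher in liver and 2 in colon, with overlapping ranges of -0.98 to 0.50 in colons and -0.47 to 1.59 in livers. The T cell list had 5 of 11 genes higher in liver and 1 in colon, and its ranges were -0.71 to -0.09 and -0.24 to 0.33. Endothelial genes were higher in liver in 6 of 8, neutrophil genes in 5 of 9, B cell genes in 3 of 9 and NK cell genes in 2 of 7, with 1 NK cell gene higher in colon, where 19.4% of all probes and 33.2% of well-detected ones were higher in liver. None of 5 dendritic cell genes was called. In colon, all 7 smooth muscle genes, 6 of 7 adipose genes and 2 of 4 plasma cell genes were higher, and the remaining adipose gene was higher in liver. The part of these cell populations in the chemokine differences was not tested.

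Diet was compared within each tissue, to ask whether sufficient selenium and folate after weaning changed mRNA abundance. For genes such as Nov, Stx6 and Pom121 the direction obtained here opposes the one the study lists. The study's probes of these genes gave 0.81, 0.80 and 0.96 in colon, where the study lists decreases. With the same dyes the colon minus liver difference was 5.80 for Krt20 and -5.20 for Alb1. The signs of all diet values below are those of HF-low-suf minus HF-low-low with the mouse RNA in Cy3, as the labels give the dyes. No chemokine or receptor passed the study's threshold of P below 0.01 with a fold change above 1.5 in colon (background 0.168%) or in liver (background 0.117%). None passed Benjamini-Hochberg adjustment in limma either, nor did any of all 41174 probes. At an unadjusted P below 0.05 there was 1 gene in colon (background 2.98%) and 0 in liver (background 2.13%). In colon 17 of the 45 genes were higher in HF-low-suf (48.3% of all probes), with a median difference of -0.09, and in liver 25 of 45 (51.4% of all probes), with a median of 0.02. Of the 23 well-detected genes, 5 were higher in HF-low-suf in colon (52.1% of well-detected probes), with a median of -0.18, and 14 in liver (55.3%), with a median of 0.06. These counts of signs carry no test.

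The smallest unadjusted limma P values in colon, among genes detected on at least 6 colons, were those of Ccl25, Ccl24 and Ccl19. Ccl25 had a median of -1.86 in HF-low-low (-2.36 to -1.14) and -2.17 in HF-low-suf (-2.47 to -1.49), a difference of -0.37 ± 0.23 (two-sided exact permutation test over 924 assignments, p = 0.171). Ccl24 had medians of -0.88 and -1.52 and a difference of -0.43 ± 0.28 (95% interval -1.01 to 0.15, exact permutation p = 0.208). Ccl19 differed by -0.24 ± 0.20 (exact permutation p = 0.286). The groups overlapped for all 3 genes. Among genes detected on at least 6 livers the smallest in liver were Cxcl4 (0.51 ± 0.39, exact permutation p = 0.275), Ccl24 (0.21 ± 0.18, exact permutation p = 0.273) and Ccl25 (0.16 ± 0.21, exact permutation p = 0.483). Cxcl4 ran from -1.23 to 0.55 in HF-low-low livers and from -0.999 to 1.33 in HF-low-suf livers. No diet groups were free of overlap for any of the 45 genes (background 0.0777% in colon and 0.0170% in liver).

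**Figure D4:**
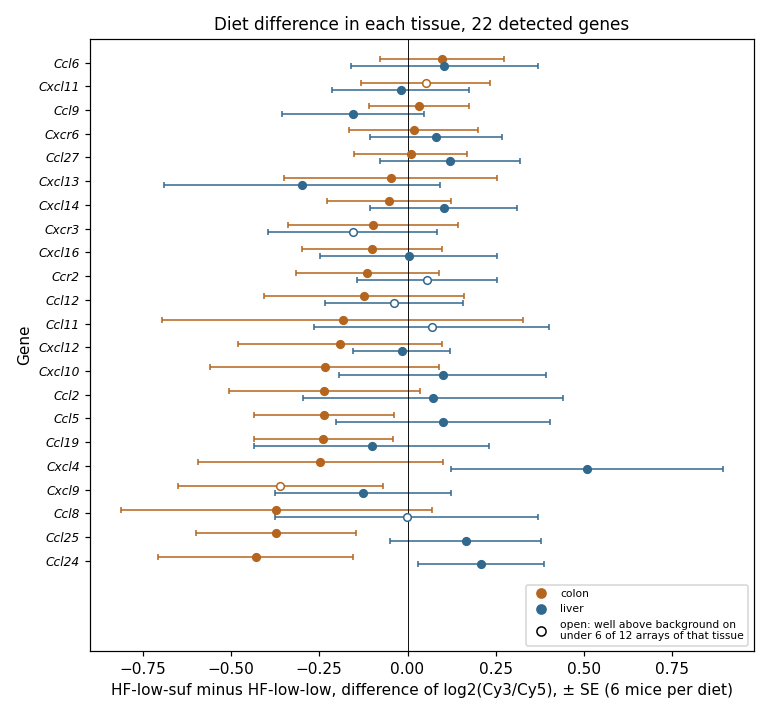
HF-low-suf minus HF-low-low difference of log2(Cy3/Cy5) with its standard error in colon and liver for 22 well-detected genes, 6 mice per diet, with open symbols where a gene was detected on fewer than 6 arrays of that tissue. The differences lie between -0.43 (Ccl24 in colon) and 0.51 (Cxcl4 in liver), and none was called.

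The gene with P below 0.05 in colon was Cxcl15, a lung epithelial neutrophil ligand, at 0.39 ± 0.16 (exact permutation p = 0.0368), with -0.36 ± 0.17 in liver (exact permutation p = 0.0628). It was above background on no array, its second probe gave -0.39 in colon, and the diet effect in colon minus that in liver (0.74 ± 0.21) had an adjusted limma p of 0.452. No gene passed adjustment for this difference between tissues, and 1 of 45 had P below 0.05 (background 6.43%). Within scan day 1, Ccl20 passed the unadjusted threshold in colon (0.82), and within scan day 2 Cxcl13 did (-0.76), each on 3 mice per diet and neither on the other day. Without the 5 colons low in macrophage transcripts, Ccl28, a mucosal ligand above background on 2 colons, passed it (-0.71). Adipose genes had a median diet difference of -0.40 in colon and 0.49 in liver. Their list mean was 0.65 in the colon of HF-low-suf replicate 5 (other colons of that diet 1.93 to 2.34, HF-low-low 1.67 to 2.75) and 2.30 in HF-low-suf liver replicate 1 (other livers of that diet -0.97 to 0.10, HF-low-low -1.31 to -0.24). Skeletal muscle genes had a diet difference above 0 in liver in 9 of 9, none called, with a median of 0.33. Macrophage and monocyte genes had a diet difference above 0 in colon in 1 of 12, none called, with a median of -0.25 and list means of -0.98 to 0.50 in HF-low-low and -0.89 to 0.31 in HF-low-suf. In the B cell list 1 of 9 genes passed the unadjusted threshold in liver, Fcer2a (1.07), which was above background on 1 liver. The part of these cells in the diet values was not tested.

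Chemokines of lymphoid follicles were set against B cell transcripts across the 12 colons, because whole colon can hold follicles in varying amount. The mean log2 ratio of 9 B cell genes ran from -0.67 to 0.06, although only Cd79b of the list was above background on more than 4 colons. Ccr6, a receptor of B cells and some T cells, had the closest relation of 6 genes (Pearson r = 0.797, permutation p = 0.00167, adjusted 0.01, Spearman rho = 0.825, permutation p = 0.00162, adjusted 0.00972, n = 12). It was 0.539 and 0.874 within HF-low-low and HF-low-suf, 0.953 and 0.604 within scan days 1 and 2, 0.829 within the 7 colons high in macrophage transcripts, and 0.683 without the 2 colons farthest from the list's median. Ccr6 was above background on 3 colons, so most of its values are near background, as are those of most genes of the list. Cxcl13 gave r = 0.589 (permutation p = 0.0431, adjusted 0.129) and rho = 0.329 (permutation p = 0.295, adjusted 0.354), and r was 0.726 and 0.591 within HF-low-low and HF-low-suf, 0.783 and 0.0949 within scan days 1 and 2, and 0.843 within the 7 colons. It was 0.111 without the 2 farthest colons, so that the relation over all colons rested on those samples. Ccl19, Ccr7, Blr1 and Ccl20 had r of 0.369, 0.379, 0.522 and 0.217 and adjusted permutation p of 0.287, 0.287, 0.200 and 0.498.

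Of the 20 chemokine genes detected on at least 6 colons, 6 did not overlap between the 5 colons low and the 7 high in macrophage and monocyte transcripts (30.0%, background over all probes detected on 6 colons 4.87%), and all 6 were higher in the 7 (background 2.68%). These samples were separated from the data and are not groups of the study, and the comparison was chosen after the values were seen, so it is a description with no test. Ccl11 was -0.88 to 0.57 in the 5 colons and 1.38 to 1.97 in the 7. Cxcl12 was -1.56 to -0.81 and -0.41 to 0.14.
The others were Cxcl4 (-0.11 to 0.50 and 0.53 to 1.81), Cxcl14 (-3.13 to -2.71 and -2.58 to -2.20), Cxcl16 (-0.61 to -0.05 and 0.06 to 0.37) and Ccr2 (-0.34 to -0.08 and 0.02 to 0.70). Ccl6 (1.97 to 2.38 and 1.47 to 2.52), Ccl9 and Ccl25 overlapped between them. Endothelial and plasma cell lists also stood higher in the 7 colons, at -0.79 to -0.56 and -0.89 to 0.01 against -1.24 to -0.84 and -1.56 to -0.97. Without the 5 colons the colon minus liver difference was 2.56 for Ccl11, 1.76 for Cxcl4, -2.38 for Cxcl12 and 0.42 for Ccr2. The 5 colons held the lowest values of each of these genes, so leaving them out raises the difference by construction and is no test. The part of macrophages and of the other cells in these differences was not tested.

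**Figure D5:**
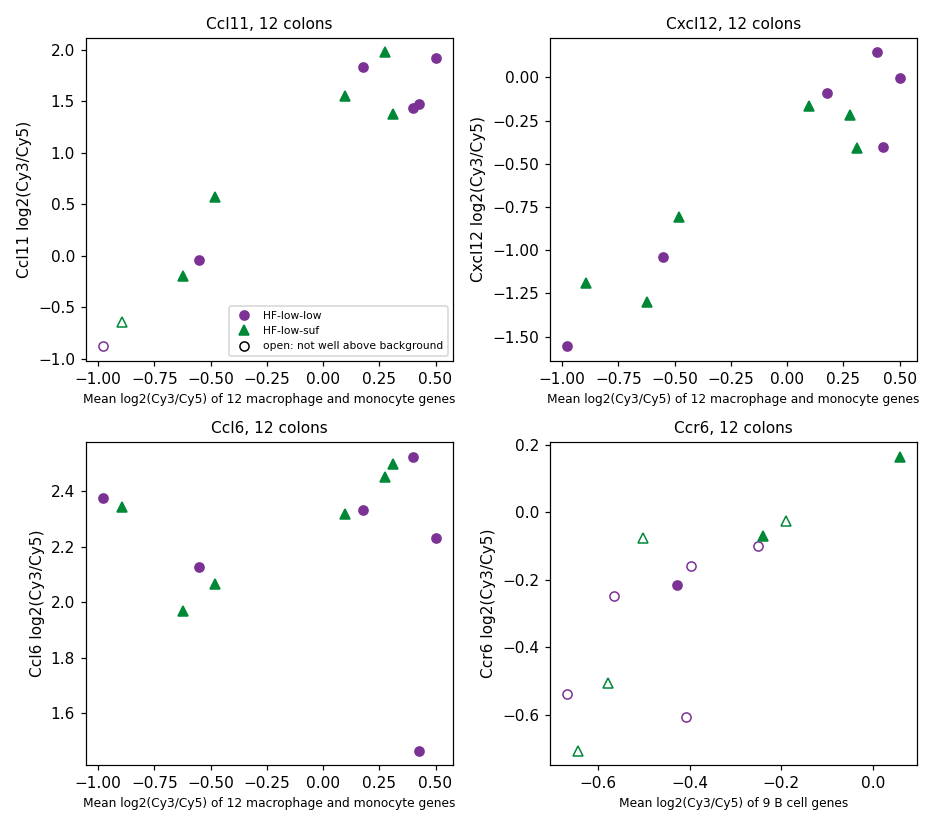
log2(Cy3/Cy5) of Ccl11, Cxcl12 and Ccl6 in 12 colons against the mean of 12 macrophage and monocyte genes, and of Ccr6 against the mean of 9 B cell genes, by diet, with open symbols for spots not well above background. The 5 colons with a macrophage mean of -0.48 or less hold the lowest Ccl11 and Cxcl12 values, whereas Ccl6 shows no such step.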

How the data were processed

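RNA of colon and liver from 12 mice was hybridised to 24 two-colour Agilent arrays on 6 slides, against a common reference, with no dye swap. The deposited intensity values are the mean spot signals and median local backgrounds that the authors obtained with Feature Extraction 9.5.3.1, before any loess normalization, and the deposited flags mark spots well above background. Intensities were background corrected (normexp, offset 50), 1639 control spots of 45018 and outlier spots were left out, and each array was loess normalized in limma 3.58.1 on R 4.3.3. This offset shrinks folds of dim spots. Ratios were turned to log2(Cy3/Cy5), and 6 values of the chosen probes are missing as outlier spots, so their fits use fewer arrays. The log10 ratios and processed signals that the authors deposited were not used in the main results.

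Colon and liver were compared over all 24 arrays, the mouse being a random block (duplicateCorrelation, statmod 1.5.0, intra-mouse correlation 0.158), a design chosen here, and diets within each tissue over its 12 arrays, with limma and the threshold of the study's methods. Calls used Benjamini-Hochberg adjustment at 0.05 for tissue, and for diet P below 0.01 with a fold above 1.5, over all 41174 probes. Replicate numbers tie the colon and liver of a mouse, whose deviations from the group means correlated at -0.03 to 0.28. Between diets they mark only a slide, and same-numbered deviations correlated at -0.09 to 0.24 in colon and -0.50 to 0.53 in liver. Diet P-values measure the spread between mice, and tissue P-values the spread across mice with colon and liver of a mouse tied as a block. Named are all genes above background on 6 of 12 arrays of a tissue, dimmer called ones with their array counts, and for diet the 3 with the smallest P. The genes and lists were chosen with earlier results of these data known. Where a tissue lay below background on all its arrays, the bound sets the mean Cy3 signal of the other tissue against a floor. On each dim array the floor is the larger of the gene's signal and the array's lowest well-measured signal. Correlations used 100000 resamples. The scripts were tested on simulated data. Array number limits precision. Genes keep the names in the array files, RefSeq supplied promoter windows, and probe coordinates are in build mm7, with no annotation of that build used here. Alternatives were other background corrections, scalings, probes, blocks, scan days and left-out arrays. The totals and the tests across probes include 1 gene that is not reported here by name or drawn.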

Additional observations from a re-analysis of the deposited data

Results flagged for a closer look

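In 3 of 92 groups of 6 arrays, 1 array lay far from the other 5 by Dixon's criterion, which chance gives in about 1 of 20 groups (4.6 of 92). Ccl19 in HF-low-low livers reached 0.81 in replicate 2, with the other livers of the group at -1.14 to -0.55. Ccr2 in the same liver was 0.82, with the others at -0.57 to -0.06, although it was not well above background there. This liver also had the highest mean log2 ratio of the 12 livers for the macrophage and monocyte list (1.59), the T cell list (0.33) and the dendritic cell list (0.42), whose part was not tested. Ccl2 in HF-low-suf livers reached 1.32 in replicate 1, the liver that also stood apart in adipose transcripts, with the others at -0.03 to 0.35. That liver had the highest macrophage and monocyte mean of its diet group (0.999) and the highest B cell mean of the 12 livers (0.294), whose part was not tested.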

How the results depend on the processing

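All 18 tissue calls and their directions held under each alternative for background, scaling, channel, outlier spots, probes, left-out mice or arrays and blocks, except that a filter on dim probes took Cxcl1 and Cxcl7 out of the test and that Cxcl4, Ccl8 and Cxcl7 were lost within 1 scan day. Leaving out 1 mouse at a time gave 18 to 21 calls (7 to 9 higher in colon, 11 to 12 higher in liver), and without a replicate block, with the mouse as a fixed replicate block or with the slide as a block there were 18. Signals processed by Feature Extraction raised the genes higher in colon from 7 to 15, adding Ccl1, Ccl17, Ccl22, Ccl28, Ccr2, Ccr8, Cxcl2 and Cxcr4, of which Ccr2 alone was well detected, and the cause was not tested. Differences that were not called and turned sign included Ccl5 and Cxcr6 within scan day 1 (-0.206 and -0.163), Cxcr3 within scan day 1 (0.03 to -0.12), Cxcl13 within scan day 2 (-0.0707), the dim Ccl4 and Ccl20 within scan day 2 (-0.42 to 0.13 and -0.02 to 0.265) and several other dim genes. The diet difference of Ccl19 in colon also turned sign within scan day 1 (0.0358). Diet gave 0 calls throughout, with the slide (replicate block) too, apart from 1 gene each in colon within scan day 1, within scan day 2 and without the 5 colons low in macrophage transcripts, an alternative added after seeing the data, and 1 in liver with processed signals (Ccr3, -0.94). Colon against liver could miss differences in the 22 genes dim in both tissues.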
